A study of Mus musculus with 24 samples.

Results

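The genes described here are 9 genes of natural killer (NK) cells and cytotoxic T cells: Gzma, Gzmb, Gzmk, Prf1, Nkg7, Ncr1, Klrd1, Eomes and Tbx21. They were chosen by symbol and not by a rule on their measured values, though earlier results of these data were known. The array feature with the highest mean was taken for each gene. All 9 were measured, out of 20728 named genes on the array. Nkg7 and Eomes had 2 features each and the other 7 genes had 1.

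Whole lungs of C57BL/6 mice aged 9 to 12 weeks gave the total RNA for 24 one-colour Agilent arrays. The mice were given either PBS or bleomycin, which breaks DNA and is used to produce lung injury and fibrosis. Within each treatment there was a group transfected with a control gapmer and 1 each with gapmer 1 and gapmer 3. Gapmers are antisense oligonucleotides that direct RNase H to an RNA, and gapmers 1 and 3 are directed at the long noncoding RNA Dnm3os. No group was free of gapmer. The 3 PBS groups held 3 samples each and the 3 bleomycin groups held 5 each. The sources used here do not give dose, route, sex of the mice or the time between bleomycin and tissue collection. No animals are named in the labels, only sample numbers, so a p-value measures spread among these samples, which may be technical in part.

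NK cells and cytotoxic T cells kill target cells by releasing granules. Perforin opens the way into the target, and granzymes, serine proteases, then start cell death there. NK cells decide whether to kill by weighing signals from activating and inhibitory receptors, and in the mouse most inhibitory receptors of the Ly49 family (the Klra genes) recognise MHC class I. The T-box transcription factors Eomes and T-bet (Tbx21) direct the maturation of NK cells and of cytotoxic T cells. The lung holds a large resident population of mature NK cells.

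Values are log2 intensities, so a difference of 1 is a 2-fold change in signal. Levels of different genes were not set against each other, because probes differ in brightness. All 9 genes lay above 6.11, the 25th percentile of gene means, in every group. The tissue label was borne out by the lung marker genes, whose mean per sample lay between 14.26 and 14.73. In bleomycin mice Dnm3os, the RNA targeted by the gapmers, fell by 0.72 with gapmer 1 (6.18 ± 0.19 against 6.90 ± 0.17, SD, n = 5 each, limma adjusted p = 0.000186). With gapmer 3 it fell by 0.50 (6.40 ± 0.22, n = 5, limma adjusted p = 0.00293). In PBS mice every gapmer sample lay below every control sample, but neither difference passed (limma adjusted p = 0.0882 and 0.577), and both gapmer means lay under 6.11. Some samples stood apart in genes of other tissues. Bleomycin control replicate 3 had a thymus marker mean of 9.15, against 7.31 at most in the other samples, and PBS gapmer 3 replicate 2 had a Cd8a level of 12.45 with a skeletal muscle marker mean of 6.54. Counts of called genes that changed without either sample are given beside the result for the comparisons described.

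The promoters of 8 of the 9 genes were found in a RefSeq table of the GRCm38.p6 build, and the 250 bases before each start site were searched on both strands for 3 short motifs of lymphocyte transcription factors. The Runx motif TGTGGTT, present in 4.46% of 27025 promoters of the same length, occurred in Gzma, Gzmb and Ncr1. The T-box motif GGTGTGA, present in 3.31%, occurred in Nkg7 and Gzmk, and the Ets motif CCGGAAG, present in 7.05%, in none of the 8. The stretches are shown to give the sequence around each match; the motif is in capitals, and each line runs 5′ to 3′ on the strand of the gene.
Gzma, chr13:113100996-113101062, minus strand, Runx motif read on the opposite strand: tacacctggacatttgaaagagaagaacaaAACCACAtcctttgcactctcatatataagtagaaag
Gzmb, chr14:56262335-56262398, minus strand, Runx motif: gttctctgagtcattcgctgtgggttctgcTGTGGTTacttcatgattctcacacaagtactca
Ncr1, chr7:4337509-4337575, plus strand, Runx motif: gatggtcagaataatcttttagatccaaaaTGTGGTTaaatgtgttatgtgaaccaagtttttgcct
Nkg7, chr7:43437095-43437137, plus strand, T-box motif: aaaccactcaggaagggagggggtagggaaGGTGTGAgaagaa
Gzmk, chr13:113181004-113181070, minus strand, T-box motif: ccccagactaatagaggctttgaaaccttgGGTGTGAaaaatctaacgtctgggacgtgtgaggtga
Counted from the start site, the matches began at position -51 in Gzma, -34 in Gzmb, -176 in Ncr1, -13 in Nkg7 and -75 in Gzmk. A match describes the letters and is not evidence of binding.

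The first comparison, bleomycin against PBS in mice given the control gapmer, asks how lung injury changed these genes. Of the 9, 6 were lower and none was higher: the granule proteases Gzma and Gzmb, perforin (Prf1), the NK receptor Ncr1 and the transcription factors Eomes and Tbx21. The largest fall was in Gzma, 2.68-fold. Across all genes 19.3% were lower in this comparison and 14.5% higher (limma, with Benjamini-Hochberg adjustment across the whole table and 0.05 as the limit for every call). The median difference of the 9 genes was -0.35, against -0.02 over all genes. Gzma, Gzmb, Ncr1 and Tbx21 were called in all 21 alternatives of the analysis, whereas Prf1 was called in 13 of 21 and Eomes in 15 of 22; 4 genes were called without PBS control replicate 2, PBS control replicate 3 or bleomycin control replicate 4, and 5 without bleomycin control replicate 3. The skeletal muscle marker mean ran from 11.17 to 12.30 in the PBS control samples and from 9.39 to 9.57 in the bleomycin control samples. With that mean as a covariate the count was again 6 lower. These ranges did not overlap, so the adjustment rests on variation within groups and cannot separate muscle content from bleomycin. The same limit holds wherever this covariate is used for this comparison. In whole lung, fewer cells of a type and less RNA per cell cannot be told apart. In the same samples 8 of 11 T cell markers were higher and none lower. Of the 10 lung marker genes 5 were lower and 2 higher there, with a median difference of -0.34. A fall of this size was therefore not particular to the 9 genes.

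Gzma encodes granzyme A, a trypsin-like protease of cytotoxic granules. With PBS and control gapmer it measured 13.33, 12.99 and 13.46, and with bleomycin and control gapmer 11.84, 11.41, 12.14, 11.49 and 12.31. The lowest PBS sample lay above the highest bleomycin sample. The difference was -1.42 (SE 0.22, limma adjusted p = 3.57e-05). The same order held with the gapmers against Dnm3os: gapmer 1 samples measured 13.06, 13.20 and 12.64 with PBS and 12.22, 12.52, 12.24, 11.39 and 12.47 with bleomycin, a difference of -0.80 (SE 0.22, limma adjusted p = 0.0263). Gapmer 3 samples measured 13.13, 13.39 and 13.21 with PBS and 12.35, 12.24, 11.85, 12.29 and 12.36 with bleomycin, a difference of -1.02 (SE 0.22, limma adjusted p = 0.0031). No bleomycin sample under any gapmer reached the PBS samples of the same gapmer.

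Gzmb encodes granzyme B, which cleaves caspases and Bid in the target cell. It measured 8.46, 8.20 and 8.22 with PBS and control gapmer, and 7.80, 7.51, 7.66, 7.70 and 7.87 with bleomycin and control gapmer. The groups did not overlap, and the difference was -0.59 (SE 0.13, limma adjusted p = 0.0015). It was -0.43 with gapmer 1 (limma adjusted p = 0.0433) and -0.64 with gapmer 3 (limma adjusted p = 0.00203). Basophils and mast cells can also express Gzmb, and 4 of 7 markers of these cells, Gzmb among them, were lower with bleomycin under the control gapmer, with Cpa3 at -0.74, Cma1 at -0.61 and Fcer1a at -0.56. The marker mean ran from 6.97 to 7.29 in the PBS control samples and from 6.56 to 6.79 in the bleomycin control samples, and Mcpt8, which marks basophils, lay at 6.08 with bleomycin, under the dim limit of 6.11. Over all genes 19.3% were lower in this comparison. The part of basophils and mast cells in the Gzmb result was not tested.

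Prf1 encodes perforin. The PBS control samples measured 8.15, 8.21 and 8.36, and the bleomycin control samples 7.75, 7.74, 8.06, 7.76 and 8.18. Bleomycin replicates 3 and 5 lay close to the PBS samples and replicate 5 above the lowest of them, so the groups overlapped. The difference was -0.35 (SE 0.12, limma adjusted p = 0.0365). It was -0.24 with gapmer 1 and -0.37 with gapmer 3, and neither passed (limma adjusted p = 0.276 and 0.0544). The call under the control gapmer was kept in 13 of 21 alternatives, and among the 8 that left out 1 sample in 3.

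Nkg7 encodes a granule membrane protein needed for degranulation, and Gzmk encodes granzyme K, typical of memory CD8 T cells. Neither passed under the control gapmer: Nkg7 differed by -0.20 (SE 0.13, limma adjusted p = 0.272) and Gzmk by 0.20 (SE 0.10, limma adjusted p = 0.143). Gzmk was the only one of the 9 above 0, and its 5 bleomycin control samples, at 6.66 to 6.91, all lay above the PBS control samples, at 6.53 to 6.63, as in 15.1% of all genes. Gzmk in PBS mice with the other gapmers already measured 6.60 to 7.08, and its bleomycin differences there were -0.08 and 0.02. Nkg7 passed with gapmer 3, where it fell by 0.47 (SE 0.13, limma adjusted p = 0.0214). With gapmer 1 Nkg7 differed by -0.24, which did not pass (limma adjusted p = 0.307). Its second feature was also lower with bleomycin, at 9.40 against 9.66 with the control gapmer and 9.07 against 9.73 with gapmer 3. With gapmer 1 this feature lay at 9.24 against 9.68.

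Ncr1 encodes NKp46, an activating receptor that in blood and lung marks NK cells and related innate lymphoid cells rather than T cells. It measured 7.10, 7.17 and 7.15 with PBS and control gapmer, and 6.32, 6.29, 6.38, 6.29 and 6.64 with bleomycin and control gapmer. The PBS samples lay close together and above every bleomycin sample. Ncr1 fell by 0.76 (SE 0.09), and its limma adjusted p of 1.67e-06 was the smallest of the 9 genes. The bleomycin control mean of 6.38 lay not far above the dim limit of 6.11, so background may limit the size of Ncr1 differences. With gapmer 1 Ncr1 fell by 0.35, from 7.0, 6.98 and 6.74 to 6.49, 6.50, 6.67, 6.52 and 6.61 (limma adjusted p = 0.0176). With gapmer 3 it fell by 0.29, from 6.75, 7.10 and 6.78 to 6.66, 6.58, 6.42, 6.68 and 6.61 (limma adjusted p = 0.038). The bleomycin response with each gapmer was tested against that with the control gapmer, which gave a difference of 0.41 for gapmer 1 (95% interval 0.14 to 0.68, limma adjusted p = 0.0557) and 0.47 for gapmer 3 (0.20 to 0.74, limma adjusted p = 0.0502). Neither passed, nor did the other 8 genes; 7.7% and 3.09% of all genes did. At an unadjusted p under 0.05 Ncr1 was the only 1 of the 9 in each. Among alternatives, the difference passed in 7 of 29 for gapmer 1 and in 10 of 29 for gapmer 3. Without bleomycin control replicate 5, the highest of its group at 6.64, it was 0.47 (limma adjusted p = 0.0135) and 0.53 (limma adjusted p = 0.0112). In PBS mice the samples of both gapmers lay below the 3 control samples, the closest at 7.10 to 2 decimals, as did 13.7% and 8.34% of all genes. Those PBS differences of -0.23 and -0.26 did not pass (limma adjusted p = 0.24 and 0.422).

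Klrd1 encodes CD94, which pairs with NKG2 proteins to form receptors for a nonclassical MHC molecule. The PBS control samples measured 9.60, 9.47 and 10.05, and the bleomycin control samples 9.50, 9.64, 9.64, 9.38 and 9.62. The groups overlapped, and the difference of -0.15 (95% interval -0.42 to 0.11) did not pass (limma adjusted p = 0.399). Its differences of -0.13 with gapmer 1 and -0.20 with gapmer 3 did not pass either (limma adjusted p = 0.619 and 0.358). With gapmer 3 the 95% interval reached from -0.47 to 0.07.

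Of the transcription factors, Tbx21 measured 7.93, 7.99 and 8.30 with PBS and control gapmer and 7.50, 7.37, 7.69, 7.67 and 7.63 with bleomycin and control gapmer. The groups did not overlap, and the difference was -0.50 (SE 0.13, limma adjusted p = 0.00381). Eomes measured 7.0, 7.19 and 7.18 with PBS and 6.93, 6.94, 6.69, 6.83 and 6.95 with bleomycin. These groups did not overlap either, though the gap was small, and Eomes fell by 0.25 (SE 0.09, limma adjusted p = 0.0294). Without bleomycin control replicate 3, the sample with thymus markers, Eomes was no longer called, with a difference of -0.21 (limma adjusted p = 0.0768), which left 5 of the 9 genes lower. Tbx21 differed by -0.36 with gapmer 1 and by -0.26 with gapmer 3, neither of which passed (limma adjusted p = 0.084 and 0.203), whereas Eomes fell by 0.37 with gapmer 3 (limma adjusted p = 0.00598) and differed by -0.24 with gapmer 1 (limma adjusted p = 0.091). The second Eomes feature had group means of 5.72 to 6.00, under the dim limit.

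**Figure D1:**
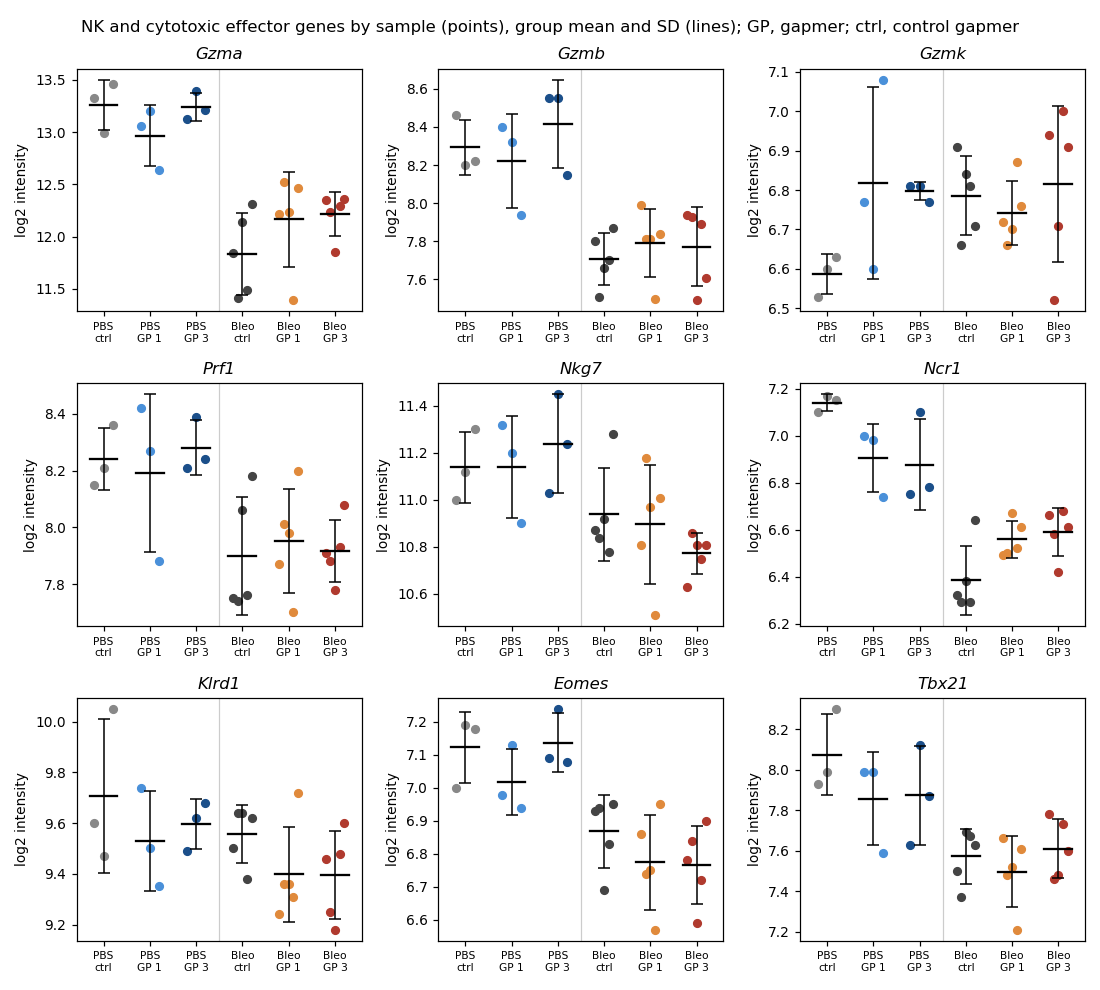
Log2 intensity of each of the 9 genes in the 24 samples (points), by group, with the group mean and SD (lines); each panel has its own vertical scale. For Gzma all 15 bleomycin samples (11.39 to 12.52) lie below all 9 PBS samples (12.64 to 13.46), whereas for Klrd1 the PBS and bleomycin samples overlap.

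In 7 of the 9 genes the means of all 3 PBS groups lay above the means of all 3 bleomycin groups. The exceptions were Klrd1, where the bleomycin control mean (9.55) lay above the PBS gapmer 1 mean (9.53), and Gzmk, where the PBS control mean was the lowest of the 6. Neighbouring groups in these orders, within PBS or within bleomycin mice, did not differ by a called amount.

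Across the 3 gapmers, Gzma, Gzmb and Ncr1 were lower with bleomycin each time. With gapmer 1, 3 of the 9 genes were lower and none higher, and in all genes 3.13% were lower and 6.35% higher. With gapmer 3, 5 of 9 were lower and none higher, and in all genes 6.85% were lower and 7.02% higher. The median difference was -0.24 with gapmer 1 and -0.37 with gapmer 3, against 0.01 and -0.01 over all genes. In bleomycin control mice 5 of the 9 genes did not overlap with PBS and lay lower (18.2% of all genes), with gapmer 1 it was 2 (5.64%) and with gapmer 3 it was 6 (12.0%). These counts rested on single samples in places. Without PBS gapmer 3 replicate 2, the genes lower with gapmer 3 were 2, Gzma and Gzmb, and 1 of the 9, against 0 with all arrays, was called for the difference in bleomycin response between gapmer 3 and control. Without bleomycin control replicate 3, which enters through the shared spread, 2 genes were lower with gapmer 1. Without PBS gapmer 1 replicate 1 or replicate 2 none was lower with gapmer 1 (limma), and without bleomycin gapmer 1 replicate 4 the count was 1, Ncr1.

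**Figure D2:**
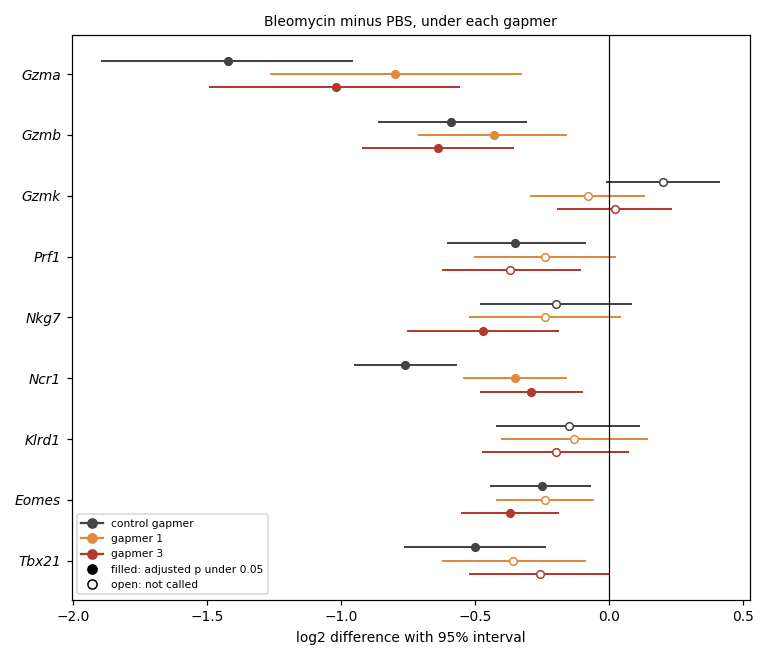
Difference in log2 intensity between bleomycin and PBS (points, with 95% intervals) for the 9 genes under the control gapmer, gapmer 1 and gapmer 3; filled points passed an adjusted p under 0.05. Gzma, Gzmb and Ncr1 are filled under all 3 gapmers, and Gzmk and Klrd1 are open under all 3.

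In injured lung, the groups given gapmer 1 or gapmer 3 were set against the control gapmer group, to ask whether lowering Dnm3os changed these genes. None of the 9 passed with either gapmer (limma). At an unadjusted p under 0.05 there was 1 with each, Ncr1, at 0.17 with gapmer 1 and 0.21 with gapmer 3 (limma adjusted p = 0.181 and 0.09). Over all genes 10.5% passed with gapmer 1 and 13.2% with gapmer 3. Both comparisons use the same control samples, so their values are given side by side and are not independent of each other.

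The differences ran from -0.15 (Klrd1) to 0.33 (Gzma) with gapmer 1 and from -0.16 (Nkg7 and Klrd1) to 0.38 (Gzma) with gapmer 3. For Gzma the 95% interval reached from -0.07 to 0.73 with gapmer 1 and from -0.02 to 0.79 with gapmer 3. For Gzmb the interval was -0.16 to 0.32 and -0.18 to 0.30, and for Prf1 -0.17 to 0.28 and -0.21 to 0.24. All 9 genes overlapped between the gapmer and control groups in both comparisons; of all genes, 3.41% lay lower and 2.87% higher without overlap with gapmer 1, and 8.03% and 4.83% with gapmer 3. With array weights, Gzma and Ncr1 passed with each gapmer, Gzma at 0.53 and 0.54. Without bleomycin control replicate 5, Ncr1 passed with gapmer 1 (0.24) and gapmer 3 (0.27), and without bleomycin gapmer 1 replicate 4 Gzma passed with gapmer 1 (0.52). The second Nkg7 feature differed by -0.32 with gapmer 3, which passed (limma adjusted p = 0.0412). In PBS mice none of the 9 passed with either gapmer (1.11% and 0.0338% of all genes passed), and 1 with each had an unadjusted p under 0.05, Ncr1 both times. The 2 gapmers against Dnm3os differed from each other by -0.12 to 0.12 in bleomycin mice, with none passing (0.0% of all genes passed), and by -0.03 to 0.28 in PBS mice, with none passing (0.0579%); none of the 9 had an unadjusted p under 0.05 in either.

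**Figure D3:**
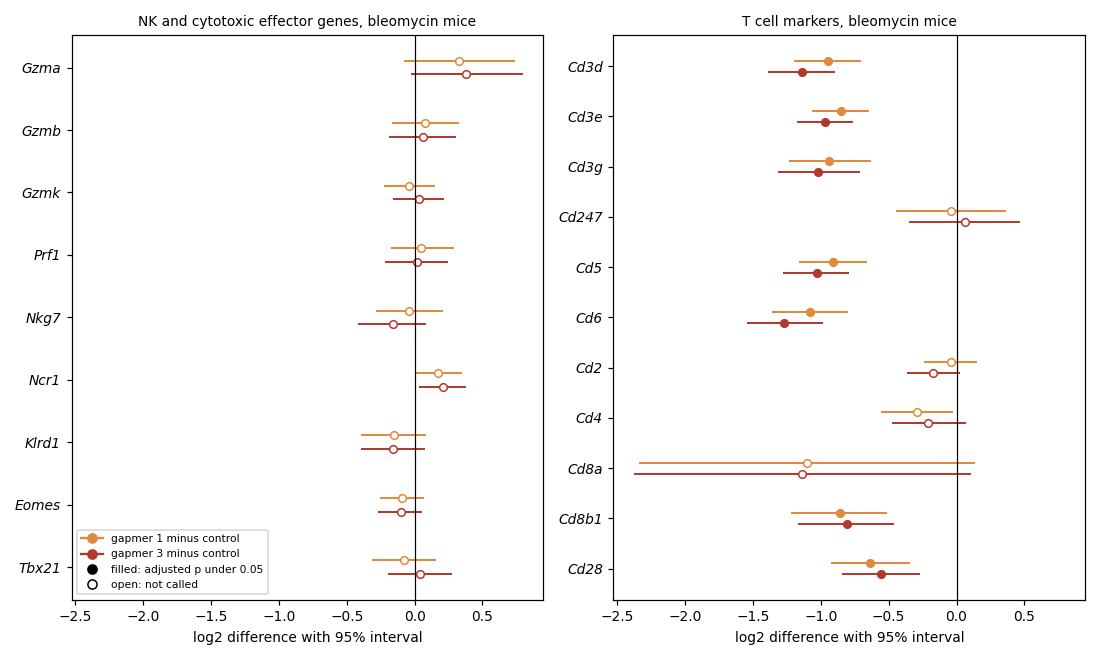
Difference in log2 intensity between each gapmer against Dnm3os and the control gapmer in bleomycin mice (points, with 95% intervals), for the 9 genes (left) and for 11 T cell markers (right); filled points passed an adjusted p under 0.05. No point is filled on the left, while 7 of the 11 T cell markers are filled on the right with each gapmer.

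The T cell markers are set beside these because cytotoxic T cells express several of the 9 genes. Of 11 measured T cell markers 8 were higher with bleomycin under the control gapmer and none lower; with gapmer 1 and with gapmer 3 in bleomycin mice, 7 were lower and none higher. Over all genes 14.5% were higher with bleomycin, and 5.08% were lower with gapmer 1 and 7.52% with gapmer 3. Cd3e, a chain of the T cell receptor complex, measured 9.93, 10.15 and 10.52 with PBS and control gapmer and 10.95, 11.05, 11.28, 10.92 and 10.69 with bleomycin and control gapmer, all 5 above the PBS samples. It differed by 0.78 (limma adjusted p = 1.32e-05). The T cell marker mean ran from 8.97 to 9.29 in the PBS control samples and from 9.47 to 10.31 in the bleomycin control samples. All 5 general leukocyte markers were higher in the same comparison. Leaving out bleomycin control replicate 3 gave the same 8 higher and 7 lower T cell marker counts, and leaving out PBS gapmer 3 replicate 2 gave 9 higher and 8 lower. The part of T cells in the values of the 9 genes was not tested.

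The wider biology was taken from 11 lists of NK and cytotoxic genes by role, 105 genes besides the 9, of which 98 were measured. With bleomycin under the control gapmer 22 of the 98 were lower and 38 higher, with a median of 0.15 against -0.02 over all genes (19.3% lower and 14.5% higher over all genes). The counts were 21 lower and 37 higher without bleomycin control replicate 3. The lists are described by their counts and medians only. In each list the 3 called genes with the smallest adjusted p were named by rule, as were the genes most like the 9; other genes are named to complete a count and were chosen after their values were seen. Probes for the granzymes and for the Ly49 family may share signal between near-identical relatives, so values for single members of those families are uncertain.

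Genes of the inhibitory receptor list divided into those that fell and those that rose. The list also holds Klra4 and Klra8, which encode activating Ly49 receptors in C57BL/6 mice, so its counts are not of inhibitory receptors alone. Of 14 measured, 8 were lower and 4 higher with bleomycin under the control gapmer, with a median of -0.58. Over all genes 19.3% were lower and 14.5% higher, with a median of -0.02. The lower genes were all of the NK receptor gene complex: the Ly49 genes Klra8 at -1.23, Klra4 at -1.10, Klra1 at -0.94, Klra7 at -0.88 and Klra9 at -0.73, together with Klre1 at -0.88, Klri2 at -0.63 and Klrc1, which encodes NKG2A, at -0.53. The higher genes were Klrg1 at 1.34, Cd96 at 0.73, Lag3 at 0.60 and Tigit at 0.51 (from 5.66, under the dim limit), checkpoint or late-differentiation receptors that are also found on activated T cells. The same counts, 8 and 4, were found with the skeletal muscle marker mean as a covariate and without bleomycin control replicate 3.

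Klra8, the Ly49H gene, measured 10.20, 9.87 and 10.28 with PBS and control gapmer and 8.89, 8.61, 8.93, 8.57 and 9.42 with bleomycin, with no overlap. Klrg1 measured 7.49, 7.32 and 7.63 and then 8.75, 9.15, 8.84, 8.82 and 8.55, again with no overlap but in the other direction. In bleomycin mice no gapmer call was made among the Klra genes, and Klra8 differed by 0.35 with gapmer 1 and 0.27 with gapmer 3 (limma adjusted p = 0.28 and 0.416). Klrg1 fell by 0.88 with gapmer 1 and by 0.95 with gapmer 3 (limma adjusted p = 0.000225 and 6.18e-05), and Cd96 fell by 0.64 and 0.69.

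Activating receptors and their adaptors were also mixed. Of 10 measured, 2 were lower (Cd226 at -0.85 and Klrb1c, the NK1.1 gene, at -0.56) and 4 higher with bleomycin under the control gapmer, against 19.3% lower and 14.5% higher over all genes. With the skeletal muscle covariate 3 were higher. The higher were Fcgr3, the low-affinity Fc receptor, at 1.41, the signalling adaptors Tyrobp at 0.79 and Hcst at 0.38, and Slamf7 at 0.84; Fcgr3, Tyrobp and Slamf7 are also expressed by myeloid cells. In bleomycin mice 2 of the 10 were lower with gapmer 1 (Hcst at -0.45 and Crtam at -0.37) and 3 with gapmer 3 (Hcst at -0.67, Crtam at -0.53 and Fcgr3 at -0.36). The skeletal muscle marker mean also differed here, from 9.39 to 9.57 in the bleomycin control samples, 10.41 to 10.98 with gapmer 1 and 7.58 to 12.29 with gapmer 3. With that mean as a covariate 1 activating receptor gene was lower with gapmer 1 and again 3 with gapmer 3. The control and gapmer 1 ranges did not overlap, so the adjustment cannot separate muscle content from gapmer 1. Over all genes 5.08% were lower with gapmer 1 and 7.52% with gapmer 3.

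**Figure D4:**
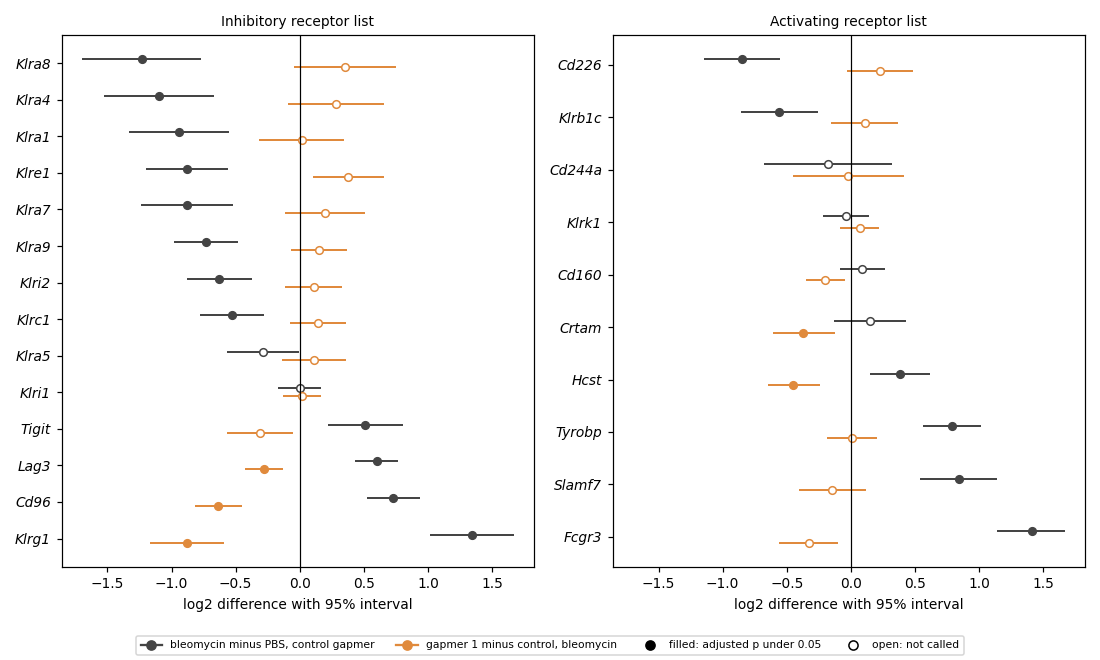
Difference in log2 intensity (points, with 95% intervals) for measured genes of the inhibitory receptor list, which includes the activating Klra4 and Klra8 (left). Genes of the list of activating receptors and adaptors are on the right. Shown are bleomycin against PBS under the control gapmer and gapmer 1 against control gapmer in bleomycin mice. Filled points passed an adjusted p under 0.05. The Klra genes lie left of 0 with bleomycin and near or right of 0 with gapmer 1, whereas Klrg1, Cd96 and Lag3 lie right of 0 with bleomycin and left of 0 with gapmer 1.

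Among granule proteins, 1 of 11 was lower and 4 higher with bleomycin under the control gapmer. Gzmm, granzyme M of NK cells, fell by 0.70 (SE 0.12, limma adjusted p = 8.8e-05), from 9.00, 8.79 and 9.15 to 8.23, 8.15, 8.13, 8.24 and 8.61, with no overlap. It was the only granule protein that rose with a gapmer, by 0.46 with gapmer 1 (limma adjusted p = 0.00666), and it differed by 0.31 with gapmer 3, which did not pass (limma adjusted p = 0.056). The 4 higher genes were Ctsc, cathepsin C, which activates granzymes, at 0.41, Ctsw, a cathepsin of cytotoxic cells, at 0.56, Cst7, cystatin F, an inhibitor of such cathepsins, at 0.47, and Gzmc at 0.36. Ctsw, Cst7 and Gzmc were lower with both gapmers in bleomycin mice, Cst7 at -0.67 and -0.89, and Gzmc lay at 6.01 with gapmer 3, under the dim limit. For Ctsc the differences were 0.14 and 0.13 (limma adjusted p = 0.264 and 0.254). Granule release genes gave 1 of 8 lower, Unc13d, the exocytosis factor Munc13-4, at -0.29, and 2 higher, Stxbp2 at 0.60 and Rab27a at 0.29. Over all genes 19.3% were lower and 14.5% higher. With the skeletal muscle marker mean as a covariate 2 granule proteins and 1 granule release gene were higher with bleomycin. In bleomycin mice 4 of the 8 release genes were higher with gapmer 1 and 3 with gapmer 3, including Serpinb6b, a granzyme inhibitor, at 0.47 in both, and Lamp1 at 0.24 and 0.28. The count with gapmer 1 was 3 without bleomycin control replicate 3. Over all genes 5.47% were higher with gapmer 1 and 5.63% with gapmer 3.

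In the list of maturation and trafficking genes, 1 of 7 was lower and 3 higher with bleomycin, against 19.3% and 14.5% of all genes. S1pr5, the sphingosine phosphate receptor that mature NK cells use to leave bone marrow and lymph nodes, was lower by 1.10 (SE 0.16, limma adjusted p = 2.02e-05), from 8.59, 8.45 and 9.13 to 7.55, 7.36, 7.70, 7.47 and 8.02. Cx3cr1 at 0.89, Cxcr3 at 0.64 and Cd27 at 0.38 were higher. In bleomycin mice 2 of the 7 were lower with each gapmer, or 1 with each without bleomycin control replicate 3. Over all genes 5.08% were lower with gapmer 1 and 7.52% with gapmer 3. Cd27 was lower by 0.45 with both, and S1pr5 differed by 0.37 and 0.29 without passing (limma adjusted p = 0.103 and 0.211).

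Of 10 measured transcription factors other than Eomes and Tbx21, 4 were lower with bleomycin and 4 higher, against 19.3% and 14.5% of all genes. Lower were Prdm1, which encodes Blimp-1, at -0.59, Gata3 at -0.62, Zeb2 at -0.29 and Ets1 at -0.28. Higher were Nfil3, needed for NK cell development, at 1.14, Irf8 at 0.82, Stat4 at 0.47 and Tox at 0.42. Stat4, Tox and Nfil3 fell in bleomycin mice with both gapmers, Tox by 0.62 and 0.77.

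**Figure D5:**
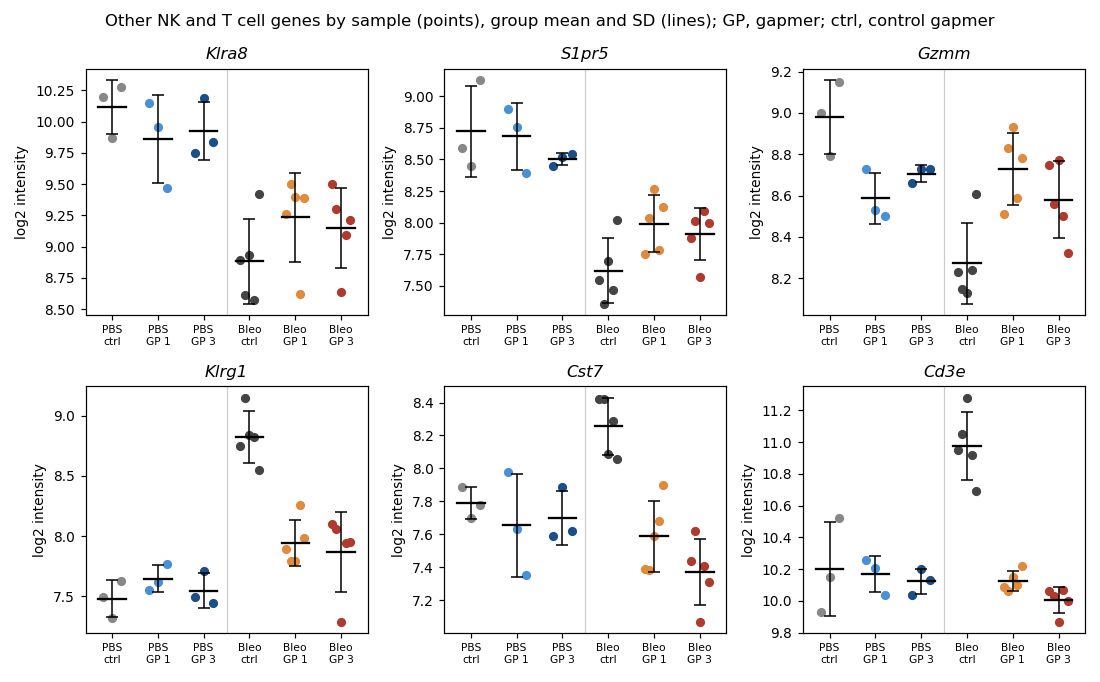
Log2 intensity of 6 further genes in the 24 samples (points), by group, with the group mean and SD (lines); each panel has its own vertical scale. Klra8, S1pr5 and Gzmm are lower with bleomycin under the control gapmer, and Klrg1, Cst7 and Cd3e are higher there and lower again with gapmer 1 and gapmer 3.

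Of 8 cytokine receptors, 4 were higher and none lower with bleomycin under the control gapmer: Il21r at 1.04, Il12rb1 at 0.55, Il2rb, a chain of the receptor for IL-2 and IL-15, at 0.48, and Il18rap at 0.40. With gapmer 1 in bleomycin mice 3 were lower (Il21r at -0.79, Il2rb at -0.69 and Il12rb1 at -0.49), and with gapmer 3 all 4 were (Il21r at -0.95, Il2rb at -0.70, Il12rb1 at -0.61 and Il18rap at -0.48). With the skeletal muscle covariate 1 receptor was lower and 3 were higher with bleomycin. With gapmer 1, 4 were lower without bleomycin control replicate 3. Over all genes 19.3% were lower and 14.5% higher with bleomycin, and 5.08% were lower with gapmer 1 and 7.52% with gapmer 3. Of the activating cytokines, Il12b was higher with bleomycin at 1.18 and Il15, which sustains NK cells, lower at -0.31. Effector cytokines and death ligands gave 3 of 9 lower, Tnfsf10 (TRAIL) at -1.10, Fasl at -0.31 and Csf2 at -0.28, and 4 higher, the chemokine genes Ccl3 at 1.44, Ccl4 at 1.10 and Ccl5 at 0.39 and Tnf at 0.98. Of these 9, 2 were lower without bleomycin control replicate 3, and 3 were higher with the skeletal muscle covariate. Ifng, the main cytokine of NK cells, had a difference of 0.04 (limma adjusted p = 0.863). Ccl4 and Ccl5 fell with both gapmers in bleomycin mice, Ccl4 by 0.95 and 1.05.

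Death receptor genes and NK receptor ligands act in the target cell. Of 5 death receptor genes 4 were higher with bleomycin under the control gapmer, including Bid at 0.79, Tnfrsf10b, the TRAIL receptor, at 0.70 and Casp8 at 0.64. The count was 3 with the skeletal muscle covariate, without bleomycin control replicate 3 and without PBS gapmer 3 replicate 2. Of 9 NK receptor ligands 4 were higher, including Raet1e, a ligand of NKG2D, at 0.84 and Cd48 at 0.59, and 1 lower, Clec2d, a ligand of NK1.1 family receptors, at -0.52; with the muscle covariate 3 were higher. In bleomycin mice Bid and Tnfrsf10b fell with both gapmers, Bid by 0.33 and 0.45, and Raet1e differed by -0.15 and -0.18 without passing (limma adjusted p = 0.465 and 0.323). In all, 2 death receptor genes were lower with gapmer 1 and 3 with gapmer 3, and with the muscle covariate 1 and 2. Of the ligands 2 were lower with gapmer 1, against 0 lower and 1 higher with the muscle covariate, and 1 without bleomycin control replicate 3. With gapmer 3, 2 ligands were lower, against 1 with the muscle covariate or without either sample that stood apart. Over all genes 19.3% were lower and 14.5% higher with bleomycin, and 5.08% were lower with gapmer 1 and 7.52% with gapmer 3.

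Over all 98 genes, 24 were lower and 6 higher with gapmer 1 in bleomycin mice, and 28 lower and 4 higher with gapmer 3. Leaving out bleomycin control replicate 3 gave 23 and 4 with gapmer 1 and 24 and 4 with gapmer 3. Without bleomycin control replicate 2 or bleomycin gapmer 1 replicate 2, 19 in all were called with gapmer 1. The share of all genes lower was 5.08% and 7.52%, and higher 5.47% and 5.63%.

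Most of the 9 genes tended to vary together between samples of one group, though no correlations of other gene pairs were set beside theirs. After each group mean was subtracted, the 36 pairs had a median Pearson correlation of 0.44 over the 24 samples (range -0.46 to 0.82), a description of samples that share array and normalisation. Gzma and Prf1 had the highest, 0.82. Gzmk was the exception, with a median of -0.22 with the other 8. The genes whose levels followed the mean of the 9 most closely after the same subtraction were Klra16 (0.95), Klra1 (0.93), Klra8, Klra4, Klra23 and Klra9 (0.90 each). Next came Klra7 (0.89), Prickle1 (0.87), Dstyk and Zfp68 (0.85 each). Probes of the Klra genes may share signal between near-identical relatives, so these values do not stand for separate genes. The T cell gene Cd3e had 0.32 and the general leukocyte gene Ptprc -0.30. NK genes from the role lists varied: Klrb1c and S1pr5 had 0.80 each, Klre1 0.69 and Gzmm 0.38, close to Cd3e. Without the subtraction the closest were Klra16 and Klra9 (0.97 each), Klra1 and Klra23 (0.96 each), Klra8 and Klra4 (0.95 each), Klra7, Lmo2 and Prickle1 (0.94 each) and Arhgef17 (0.93).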

How the data were processed

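Per the labels, total RNA of 24 mouse lung samples was labelled with Cy3 and hybridised to one-colour Agilent arrays. The deposited values are log2 intensities. They were already normalised by the authors, and the values show this: array medians lay between 6.485 and 6.495. The authors used limma, per the submitters' processing notes, which give no version; background correction is not given in the sources used here. Of 62976 features 31465 carried 1 gene symbol. For 6176 genes with several features the one with the highest mean was taken. This left 20728 genes, all of which were tested.

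Groups came from the sample titles. All genes were fitted in R 4.3.3 using lmFit and eBayes of limma 3.58.1 (24 arrays, 6 group means, two-sided, 18 residual and 3.26 prior degrees of freedom). An adjusted p (Benjamini-Hochberg over all genes) under 0.05 was called. Precision is limited by the number of arrays. No pair of samples in a group was a duplicate (SD of differences 0.16 to 0.53).

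The 9 genes, the role and marker lists and the tests were chosen with earlier results of these data known. Named by rule were all 9 genes, up to 3 called genes with the smallest adjusted p per role list, and the 10 genes most like the 9. Alternatives were the mean of all features or the other feature of a gene, requantiling, median centring, dim genes left out, only the groups compared, variance trend, robust variance, array weights, RNA integrity number, the replicate number as a block and each sample left out. Removal of a position trend on the array, the skeletal muscle covariate and list counts without single samples were added after the data were seen. Symbols were updated and promoters taken from RefSeq tables of GRCm38.p6, used for names and promoter sequence only. Tables and plots were made with pandas 2.3.3, NumPy 2.4.6 and matplotlib 3.10.9 under Python 3.11.15.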

Additional observations from a re-analysis of the deposited data

Results flagged for a closer look

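Within the bleomycin groups of 5 samples, 27 gene and group combinations were checked for a sample far from the others (gap over range above 0.71), a criterion that chance meets in about 1 of 20 groups. It was met in 5. Gzma was lowest in bleomycin gapmer 1 replicate 4, at 11.39, and in bleomycin gapmer 3 replicate 3, at 11.85. Nkg7, at 11.28, and Ncr1, at 6.64, were highest in bleomycin control replicate 5. Klrd1 was highest in bleomycin gapmer 1 replicate 5, at 9.72. Over the 9 genes, bleomycin gapmer 1 replicate 4 lay on average 0.24 below its group mean, with 8 genes below it, and bleomycin control replicate 5 lay 0.18 above its group mean, with 1 gene below it.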

How the results depend on the processing

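Of 14 called results of single genes, all 14 kept their direction in every alternative run and 6 were called in each: bleomycin against PBS for Gzma, Gzmb, Ncr1 and Tbx21 under the control gapmer, and for Gzma and Gzmb with gapmer 3. With only the groups compared, or the RNA integrity number as a covariate, 0 of the 9 genes were called for bleomycin with gapmer 1. With array weights 2 were called for each gapmer against control in bleomycin mice. For the difference in bleomycin response, 1 gene was called for gapmer 1 and for gapmer 3 with dim genes left out, array weights, the position trend removed or the muscle covariate; 1 for gapmer 1 with the RNA integrity number; and 1 for gapmer 3 with the mean of all features. Gapmer 3 against control in bleomycin mice gave 1 with the position trend removed or the muscle covariate. In each of these single calls the gene was Ncr1, and the cause of the changes was not tested. Wider list calls with gapmer 1 were 45 with array weights, against 30.

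Each sample left out in turn gave 4 to 6 calls for bleomycin under the control gapmer, 0 to 4 with gapmer 1 (0 without PBS gapmer 1 replicate 1 or 2) and 2 to 5 with gapmer 3 (2 without PBS gapmer 3 replicate 2). It gave 0 to 1 for each gapmer in bleomycin mice, 0 to 2 for the difference in response with gapmer 1 (2, Gzma at 0.82 and Ncr1 at 0.42, without bleomycin gapmer 1 replicate 4) and 0 to 1 with gapmer 3. Wider list calls ran from 50 to 61 for bleomycin, 19 to 37 with gapmer 1 and 23 to 34 with gapmer 3. Whether the replicate numbers pair the samples could not be decided from their values. Deviations of same-numbered samples correlated between -0.41 and 0.42, with 23 of 51 pairs over 0.1. Their median was 0.07, against -0.03 for samples of different numbers. With the number as a replicate block the count was 1 for the difference in response with gapmer 3, against 0 without it, and 6 again for bleomycin under the control gapmer. Signal over background limits the size of a difference where a group mean lay under 6.11, as for Tigit and Gzmc.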

Other observations

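Marker genes of other lymphocytes were measured on the same arrays. Of 6 B cell markers, 4 were higher with bleomycin under the control gapmer, including the B cell receptor chain Cd79a at 0.52 and the transcription factor Pax5 at 0.49; with the skeletal muscle marker mean as a covariate the count was 1. All 6 were lower with gapmer 1 and with gapmer 3 in bleomycin mice. Cd79a differed by -0.89 and -1.11 and Ms4a1, which encodes CD20, by -0.85 and -0.94. Over all genes 19.3% were lower and 14.5% higher with bleomycin, and 5.08% were lower with gapmer 1 and 7.52% with gapmer 3. Markers of type 1 innate lymphoid cells, close relatives of NK cells, were mixed with bleomycin. Of 5, the integrin Itga1 at -0.52 and Tnfsf10 at -1.10 were lower, and the interleukin 7 receptor Il7r at 1.16, the chemokine receptor Ccr2 at 1.00 and Cxcr6 at 0.33 were higher; these genes are also expressed by T cells or myeloid cells. With the skeletal muscle marker mean as a covariate, 2 of the 5 were lower and 2 higher with bleomycin. Il7r was lower with both gapmers in bleomycin mice, at -0.57 and -0.49, the only 1 of the 5 called lower with either. With gapmer 1 none was higher. With gapmer 3, 2 were higher, the larger at 0.54, and over all genes 5.63% were higher. These genes were named after their values were seen.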
